A study of Mus musculus with 11 samples.

Results

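The T-cell receptor (TCR) is a pair of chains, alpha with beta or gamma with delta, and 8 transcripts of its loci were followed here in sorted mouse thymocytes. They were chosen by gene symbol as listed: the constant segments Trdc (delta), Tcrg-C1, Tcrg-C2 and Tcrg-C4 (gamma), Trac (alpha) and Trbc1 and Trbc2 (beta), and the gamma variable segment Trgv2. They are 8 of the 53402 gene identifiers found in both count tables, which list 260 other TCR segments. RNA was sequenced from thymus cells purified by flow cytometry as CD24- and TCRβ-. The study changed the transcription factors Bcl11b and Tcf7 (TCF-1). At postnatal day 0 there were 2 libraries of Bcl11b D/N440K, 2 of Bcl11b +/N440K and 2 of Bcl11b +/+. N440K denotes a residue change in Bcl11b. What the D allele is, the labels leave unsaid. At postnatal day 7 there were 3 libraries of Tcf7 F/F:Vav1-Cre, in which a floxed Tcf7 allele is combined with a Cre active in blood cells, and 2 of Tcf7 +/+. Whether the Tcf7 +/+ mice carried the Cre, and whether animals were pooled, is not given in the sources used here. The labels do not say that replicates came from separate animals, so p-values cover library-to-library spread alone, and this can be technical.

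Each TCR locus holds variable (V), joining (J) and, for beta and delta, diversity (D) segments that are cut and joined in the DNA of a developing thymocyte, and one or more constant (C) segments that are spliced to the joined exon. Unjoined loci are transcribed too, so RNA of a constant segment is not by itself a sign of a joined gene or of a surface receptor. The gamma locus is a chain of cassettes, each with its own V, J and C segments. The delta locus lies inside the alpha locus, and joining of alpha removes it. The sort gate reads the beta chain at the cell surface and the CD24 protein, and neither is a measure of RNA.

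In mm10 (GRCm38) with the GENCODE M21 annotation, Trdc lies on chr14:54142851-54148868 and Trac on chr14:54220521-54224206, both on the plus strand, with the alpha joining segments between them. Trbc1 lies on chr6:41538218-41539881 and Trbc2 on chr6:41546730-41548352, both on the plus strand. On chromosome 13 the order is Tcrg-V7, Tcrg-V4, Tcrg-V6, Tcrg-V5, Trgj1 and Tcrg-C1 (chr13:19214103-19217024, plus strand), then the Tcrg-V3, Trgj3 and Tcrg-C3 cassette, then the cassette of Tcrg-C2 (chr13:19304649-19307551), Trgj2 and Trgv2 (chr13:19336573-19337167) on the minus strand, and last Tcrg-V1, Trgj4 and Tcrg-C4 (chr13:19344558-19352756, plus strand). Several constant segments are near copies. The beginning of their exon 1, read 5′ to 3′ from the GENCODE M21 transcripts, is shown because a read from this stretch may match more than one gene. Capitals mark bases that differ from Tcrg-C1, and the windows start at base 1 of the aligned exon (chr13:19214103-19214222 plus, chr13:19307432-19307551 minus, chr13:19260885-19261004 plus and chr13:19344558-19344677 plus).
Tcrg-C1: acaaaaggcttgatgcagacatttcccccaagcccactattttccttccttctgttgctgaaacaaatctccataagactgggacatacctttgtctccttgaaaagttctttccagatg
Tcrg-C2: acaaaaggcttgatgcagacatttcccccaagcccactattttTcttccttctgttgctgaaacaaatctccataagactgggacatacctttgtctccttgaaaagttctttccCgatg
Tcrg-C3: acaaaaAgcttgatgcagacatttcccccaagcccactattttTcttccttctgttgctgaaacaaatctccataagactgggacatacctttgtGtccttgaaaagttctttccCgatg
Tcrg-C4: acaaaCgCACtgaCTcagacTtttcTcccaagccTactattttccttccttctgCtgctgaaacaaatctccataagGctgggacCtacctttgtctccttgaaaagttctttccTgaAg
Over 330 bases of exon 1, Tcrg-C1 and Tcrg-C2 differed at 9 bases and Tcrg-C1 and Tcrg-C4 at 59. Their longest identical stretches were 71 and 29 bases. The beta pair is closer still. The 375 bases of exon 1 of Trbc1 and Trbc2 differ at a single base, C260A from Trbc1 to Trbc2, counted from the start of the exon. That base is the capital in the windows chr6:41538447-41538507 (Trbc1) and chr6:41546959-41547019 (Trbc2), both on the plus strand.
Trbc1: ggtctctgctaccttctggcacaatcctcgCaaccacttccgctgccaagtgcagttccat
Trbc2: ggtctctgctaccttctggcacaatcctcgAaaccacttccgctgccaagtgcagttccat
How reads that match several genes were counted, and whether the strand was used, is not given in the sources used here. The values of Trbc1 against Trbc2, and of Tcrg-C1 against Tcrg-C2 and Tcrg-C3, are therefore uncertain as single genes. Trdc overlaps 2 genes on the opposite strand, Trdv5 by 207 exonic bases and Gm43434 by 96, and without strand their reads cannot be told apart there.

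Library totals ran between 999381 and 1842717 counts. Between libraries of a group the chi-square statistic over genes was 1.14 to 2.16 per degree of freedom, but 4.94 in the Tcf7 +/+ pair, whose libraries differed more. Bcl11b itself stood at 152 and 204 CPM (counts scaled to library size) in D/N440K, at 185 and 225 CPM in +/N440K and at 641 and 506 CPM in Bcl11b +/+, and a count cannot show a changed residue. For Tcf7, libraries with the label Tcf7 F/F:Vav1-Cre had 847, 658 and 694 CPM, against 552 and 593.5 CPM in Tcf7 +/+. The count covers all exons of the gene, so it does not show whether the floxed part was removed. Thymocyte markers (Ptprc, Thy1, Cd3e, Il7r, Lck) summed to 2149 to 3003 CPM over all 11 libraries. Cd24a, which encodes the protein excluded by the sort, was low but higher in the +/+ libraries of both tables. It had 3.43 and 1.02 CPM in D/N440K, 2.45 and 0 CPM in +/N440K and 10.2 and 12.45 CPM in Bcl11b +/+. At day 7 it had 2.43, 1.695 and 2.225 CPM in Tcf7 F/F:Vav1-Cre, against 9.02 and 11.3 CPM in Tcf7 +/+.

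All 8 transcripts passed the filter on low counts in both tables, and none was called higher in a mutant group. In the Tcf7 table Trgv2 and Trac passed it through the Tcf7 +/+ libraries alone, so their changes there are a description. A transcript was called at an edgeR adjusted p under 0.05 over all genes tested. In +/N440K against Bcl11b +/+, 3 of 8 were called, all lower, where 10.1% of 10910 genes were called in either direction and 5.30% lower. In D/N440K against Bcl11b +/+, 5 of 8 were called, all lower, with a background of 12.4% and of 6.31% lower. Both comparisons share the Bcl11b +/+ libraries. Leaving out Bcl11b +/+ replicate 1 or 2, or using DESeq2, took the +/N440K count to 1, and without +/N440K replicate 1 it was 2. The D/N440K count was 3 without D/N440K replicate 1 or with DESeq2. Directly between the mutants, D/N440K against +/N440K, 1 of 8 was called, lower in D/N440K, with a background of 0.532% and of 0.247% lower, and 0 of 8 without +/N440K replicate 1 or with DESeq2. For Tcf7 F/F:Vav1-Cre against Tcf7 +/+, 6 of 8 were called, all lower, where 23.2% of 12366 genes were called and 11.1% lower. The median log2 fold change over the 8 was -0.49, -0.82, -0.14 and -1.93 in these comparisons, against medians of 0.0017, 0.0014, -1e-04 and -0.0096 over all genes tested. In bulk RNA, fewer cells of a type and less RNA per cell cannot be told apart. The number of genes called in the Tcf7 table was 4612 without Tcf7 +/+ replicate 1 and 1700 without Tcf7 F/F:Vav1-Cre replicate 3, against 2863 with all libraries.

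**Figure D1:**
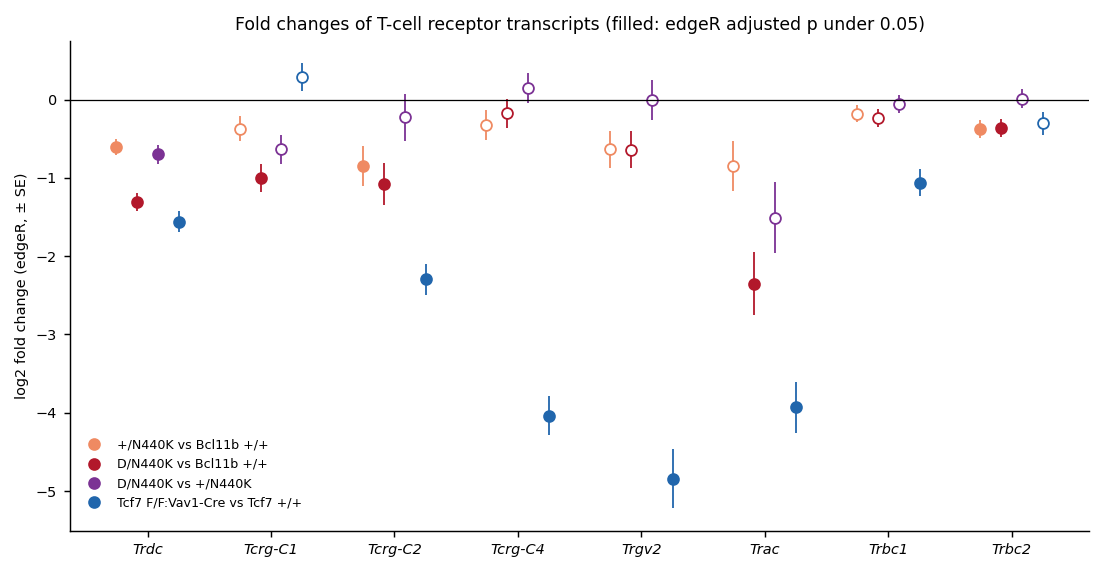
Log2 fold changes of the 8 transcripts from edgeR (vertical axis, bars ± SE) in 4 comparisons, with filled points where the adjusted p was under 0.05. Filled points all lie below 0, the lowest being Trgv2 at -4.84 in Tcf7 F/F:Vav1-Cre against Tcf7 +/+, and Trbc2 lies between -0.37 and 0.01 in all 4.

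Trdc, the only constant segment of the delta chain, was lower in every mutant group. Its level was 114 and 116 CPM in D/N440K, 203 and 168 CPM in +/N440K and 287.5 and 281 CPM in Bcl11b +/+. The 3 groups did not overlap, and +/N440K lay between the other 2. The log2 fold change against Bcl11b +/+ was -1.30 ± 0.12 in D/N440K (edgeR adjusted p = 2.91e-11, ± SE for every fold change) and -0.60 ± 0.11 in +/N440K (edgeR adjusted p = 6.12e-05). Between the mutants Trdc was also lower in D/N440K, by a log2 fold change of -0.70 ± 0.13 (edgeR adjusted p = 0.00215). Leaving out +/N440K replicate 1 took that last call away (-0.54, edgeR adjusted p = 0.0827), as did DESeq2 (-0.69, adjusted p = 0.209). At day 7 Trdc stood at 118, 106 and 105 CPM in Tcf7 F/F:Vav1-Cre, against 294 and 349 CPM in Tcf7 +/+. The groups lay apart, with a log2 fold change of -1.56 ± 0.14 (edgeR adjusted p = 2.44e-07).

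**Figure D2:**
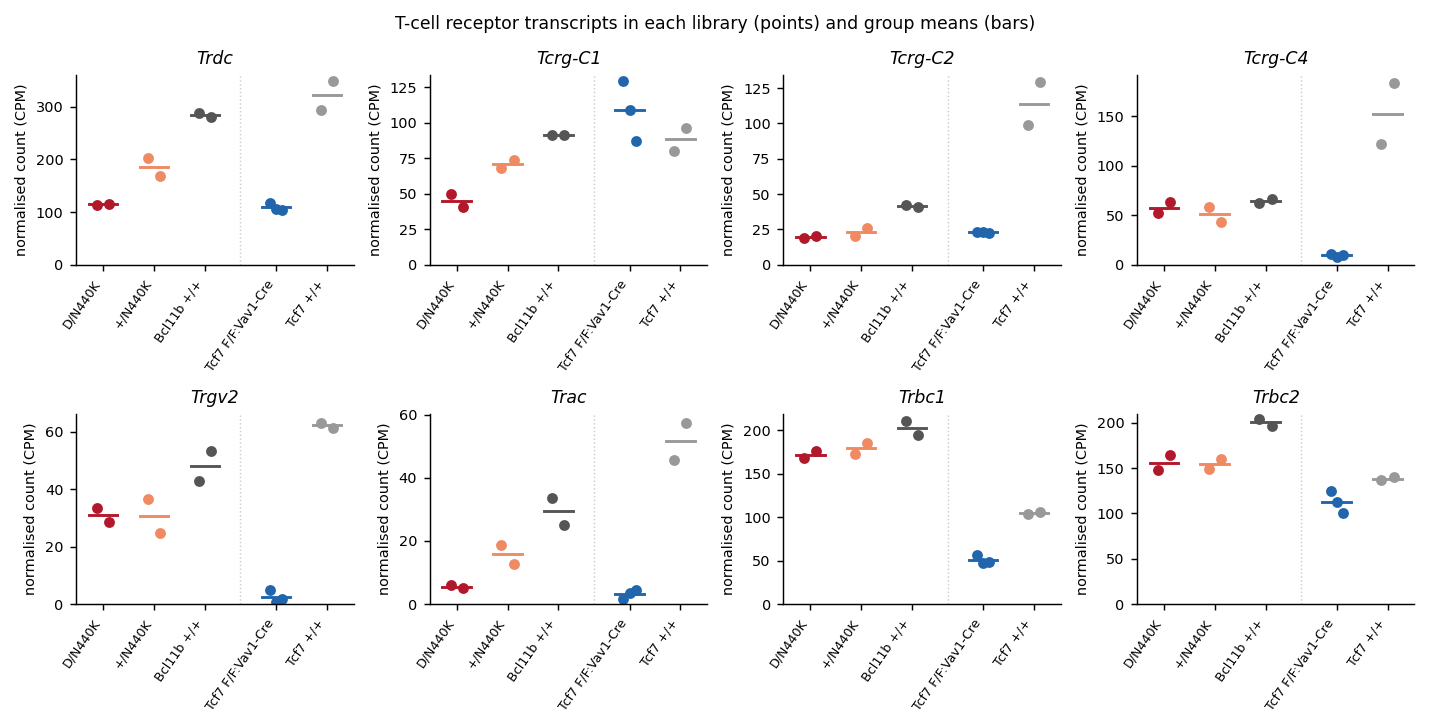
Level of each transcript in every library (points, CPM) with group means (bars), day 0 groups left of the dotted line and day 7 groups right of it. Tcrg-C4 and Trgv2 are close to 0 in Tcf7 F/F:Vav1-Cre and not in the Bcl11b mutants, and Trdc is lower than its +/+ libraries in every mutant group.

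The gamma constant segments did not move alike. Tcrg-C1, the constant segment behind Tcrg-V7, Tcrg-V4, Tcrg-V6 and Tcrg-V5, stood at 49.7 and 40.7 CPM in D/N440K, 67.7 and 74.0 CPM in +/N440K and 91.0 and 91.3 CPM in Bcl11b +/+. The groups were in the same order as for Trdc and did not overlap. The log2 fold change was -1.0001 ± 0.18 in D/N440K against Bcl11b +/+ (edgeR adjusted p = 4.5e-05) and -0.37 ± 0.16 in +/N440K (edgeR adjusted p = 0.156), and only the first passed the test. Between D/N440K and +/N440K it was -0.63 ± 0.19 (edgeR adjusted p = 0.128). Within Tcf7 F/F:Vav1-Cre, Tcrg-C1 stood at 129, 109 and 87.3 CPM, against 80.0 and 96.4 CPM in Tcf7 +/+. These groups overlapped, and the log2 fold change of 0.29 ± 0.18 did not pass the test (edgeR adjusted p = 0.276).

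Tcrg-C2, in the cassette of opposite orientation, had 18.8 and 20.4 CPM in D/N440K, 20.4 and 25.7 CPM in +/N440K and 41.9 and 40.7 CPM in Bcl11b +/+. Both mutant groups lay well below Bcl11b +/+ and close to each other. It fell in D/N440K (log2 fold change -1.07 ± 0.27, edgeR adjusted p = 0.0037) and in +/N440K (-0.85 ± 0.26, edgeR adjusted p = 0.0239). The D/N440K call did not hold when D/N440K replicate 1 was left out (0.0554 by edgeR), and the +/N440K call without Bcl11b +/+ replicate 1 (0.0995), Bcl11b +/+ replicate 2 (0.0894) or +/N440K replicate 1 (0.196), and both with DESeq2 (adjusted p = 0.176 and 0.488). Between the mutants the log2 fold change was -0.22 ± 0.30 (edgeR adjusted p = 0.954). At day 7 Tcrg-C2 had 23.4, 23.2 and 22.8 CPM in Tcf7 F/F:Vav1-Cre, against 98.6 and 129 CPM in Tcf7 +/+. The groups lay far apart, with a log2 fold change of -2.30 ± 0.20 (edgeR adjusted p = 2.19e-07).

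Tcrg-C4, the constant segment behind Tcrg-V1, was called in the Tcf7 comparison and in none of the Bcl11b comparisons. It stood at 52.2 and 63.1 CPM in D/N440K, 58.8 and 43.4 CPM in +/N440K and 62.4 and 66.4 CPM in Bcl11b +/+. D/N440K overlapped Bcl11b +/+, and no comparison passed the test: the log2 fold change was -0.17 ± 0.19 in D/N440K (edgeR adjusted p = 0.67) and -0.32 ± 0.19 in +/N440K (edgeR adjusted p = 0.367), and 0.15 ± 0.20 between them (edgeR adjusted p = 0.954). In Tcf7 F/F:Vav1-Cre it stood at 11.3, 7.34 and 9.46 CPM, against 122 and 183 CPM in Tcf7 +/+. Every Tcf7 F/F:Vav1-Cre library lay far below both Tcf7 +/+ libraries, with a log2 fold change of -4.04 ± 0.25 (edgeR adjusted p = 3.43e-09).

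Trgv2, the variable segment of the Tcrg-C2 cassette, had 33.4 and 28.5 CPM in D/N440K, 36.7 and 24.7 CPM in +/N440K and 43.0 and 53.1 CPM in Bcl11b +/+. Both mutant groups lay below Bcl11b +/+ and overlapped each other. The log2 fold changes of -0.64 ± 0.24 in D/N440K (edgeR adjusted p = 0.0732) and -0.63 ± 0.24 in +/N440K (edgeR adjusted p = 0.0823) missed the threshold. Without +/N440K replicate 1 they passed it (edgeR adjusted p = 0.0406 and 0.0251), as did the D/N440K change without +/N440K replicate 2 (0.0416). Between the mutants the log2 fold change was -0.0029 ± 0.26 (edgeR adjusted p = 1). For Tcf7 F/F:Vav1-Cre, Trgv2 was down to 6, 1 and 3 counts, or 4.85, 0.565 and 1.67 CPM, against 63.1 and 61.4 CPM in Tcf7 +/+. The groups lay apart, with a log2 fold change of -4.84 ± 0.38 (edgeR adjusted p = 6.33e-08). Trgv2 passed the filter there through the Tcf7 +/+ libraries alone, so this change is a description.

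The other tested gamma segments are given by their order along the locus. Tcrg-V5 and Tcrg-V6 are known as the variable segments of the early, fetal waves of mouse gamma-delta cells, while Tcrg-V4 and Tcrg-V1 are joined later. Within Tcf7 F/F:Vav1-Cre, Tcrg-V7 had 8.09, 14.7 and 10.0 CPM, against 2.25 and 2.25 CPM in Tcf7 +/+. With 10, 26 and 18 counts in Tcf7 F/F:Vav1-Cre and 4 and 4 in Tcf7 +/+, it passed the filter through the mutant libraries alone, so its log2 fold change of 2.27 ± 0.51 is a description. Tcrg-V5 had 32.4, 29.9 and 30.0 CPM, against 14.1 and 3.38 CPM in Tcf7 +/+ (log2 fold change 1.80 ± 0.38, edgeR adjusted p = 0.00188). With 25 and 6 counts in Tcf7 +/+, it too passed the filter through the mutant libraries alone, so this change is a description. Both segments were higher in each of the 3 Tcf7 F/F:Vav1-Cre libraries than in either Tcf7 +/+ library. The Tcf7 +/+ pair differed widely for Tcrg-V5, and its log2 fold change was 3.15 without Tcf7 +/+ replicate 1 and 1.12 without replicate 2. Tcrg-V4, between those segments on the chromosome, had 8.09, 3.95 and 2.22 CPM, against 31.0 and 51.9 CPM in Tcf7 +/+ (-3.21 ± 0.38, edgeR adjusted p = 7.6e-06). Tcrg-V1, next to Tcrg-C4, had 1.62, 0.565 and 0.556 CPM, against 40.0 and 42.8 CPM in Tcf7 +/+ (-5.51 ± 0.42, edgeR adjusted p = 3.85e-08). Tcrg-V4 and Tcrg-V1 both fell, with no overlap between the groups. Tcrg-V4 had 10, 7 and 4 counts in Tcf7 F/F:Vav1-Cre, and Tcrg-V1 had 2, 1 and 1. Both passed the filter through the Tcf7 +/+ libraries alone, so their changes are a description too. Tcrg-V6 (0.83 ± 0.54, edgeR adjusted p = 0.293) and Trgj1 (0.64 ± 0.39, edgeR adjusted p = 0.253) did not pass the test.

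At day 0 Tcrg-V4 and Tcrg-V1 were lower in the mutants too, and Tcrg-V6 was lower as well. Tcrg-V4 had 2.57 and 3.05 CPM in D/N440K, 2.45 and 3.95 CPM in +/N440K and 22.5 and 16.6 CPM in Bcl11b +/+. Tcrg-V6 had 7.71 and 12.2 CPM in D/N440K, 5.71 and 2.96 CPM in +/N440K and 28.6 and 20.8 CPM in Bcl11b +/+. Tcrg-V1 had 11.99 and 22.4 CPM in D/N440K, 18.8 and 11.8 CPM in +/N440K and 37.8 and 31.6 CPM in Bcl11b +/+. For these 3 segments every mutant library lay below both Bcl11b +/+ libraries, and all fell in both genotypes. In D/N440K their log2 fold changes were -2.74 ± 0.54 for Tcrg-V4, -1.31 ± 0.38 for Tcrg-V6 and -1.03 ± 0.31 for Tcrg-V1 (edgeR adjusted p = 0.000183, 0.0144 and 0.0192). In +/N440K they were -2.58 ± 0.52, -2.42 ± 0.45 and -1.14 ± 0.31 (edgeR adjusted p = 0.000345, 0.000122 and 0.0119). Tcrg-V4 had 3 and 3 counts in D/N440K and 3 and 4 in +/N440K. Tcrg-V6 had 9 and 12 counts in D/N440K and 7 and 3 in +/N440K. Both segments passed the filter through the Bcl11b +/+ libraries alone, so their changes are a description. Tcrg-V5 had 40.2 and 54.96 CPM in D/N440K, 59.6 and 58.2 CPM in +/N440K and 59.3 and 49.0 CPM in Bcl11b +/+, groups that overlapped, and it was not called (log2 fold change -0.19 ± 0.20, edgeR adjusted p = 0.667 in D/N440K). Without Bcl11b +/+ replicate 1 the calls of Tcrg-V6 in D/N440K (edgeR adjusted p = 0.208) and of Tcrg-V1 in D/N440K (0.124) and in +/N440K (0.0866) were lost. Without D/N440K replicate 1 the D/N440K calls of Tcrg-V6 (0.244) and Tcrg-V1 (0.386, log2 fold change -0.62) were lost, and without +/N440K replicate 2 that of Tcrg-V1 in +/N440K (0.122). DESeq2 called neither Tcrg-V6 in D/N440K (adjusted p = 0.357) nor Tcrg-V1 in D/N440K (0.372) or +/N440K (0.305), nor Tcrg-V4 in +/N440K (0.0579).

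**Figure D3:**
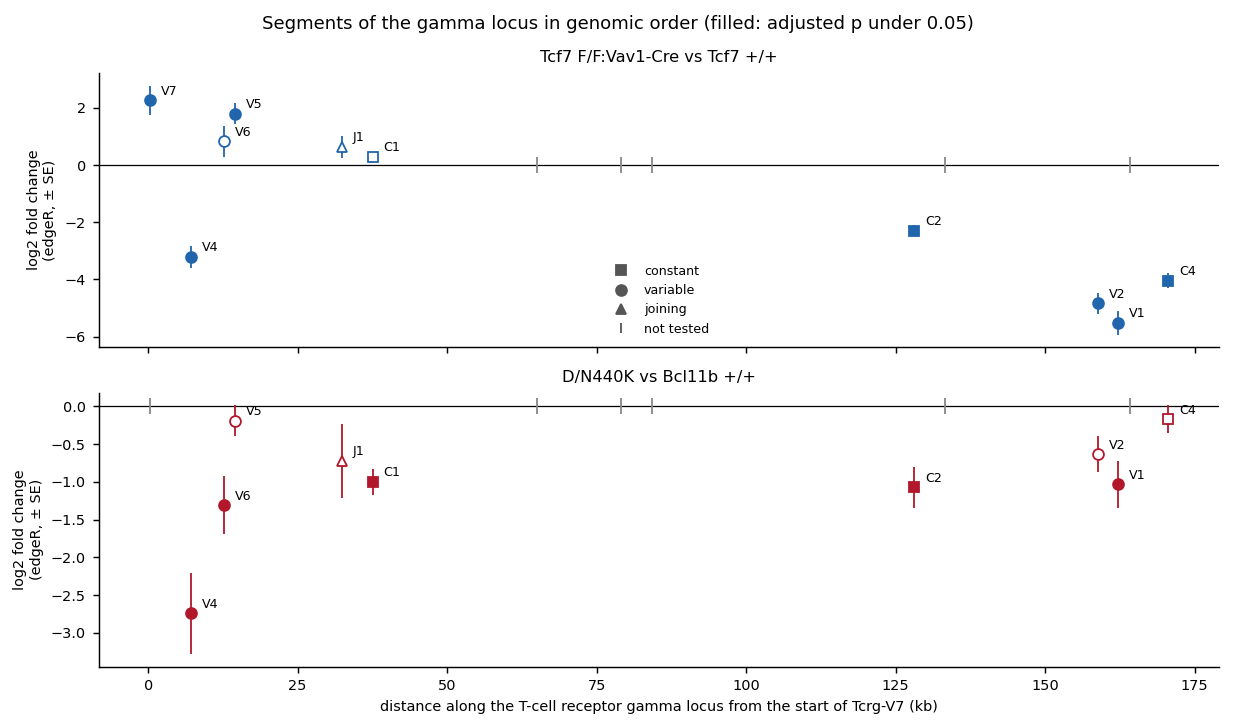
Log2 fold change (edgeR, ± SE) of each tested gamma segment against its distance from the start of Tcrg-V7 in kb, for Tcf7 F/F:Vav1-Cre against Tcf7 +/+ (upper panel) and D/N440K against Bcl11b +/+ (lower panel), filled where the adjusted p was under 0.05 and with ticks for segments not tested. In the upper panel the segments from Tcrg-C2 onward lie between -2.30 and -5.51, while Tcrg-V7 and Tcrg-V5 lie above 0 and Tcrg-V4 at -3.21.

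Trac, the single constant segment of the alpha chain, had the lowest mean level per length of the 8 in every group. It held 7 and 5 counts in D/N440K, or 5.995 and 5.09 CPM, with 18.8 and 12.8 CPM in +/N440K and 33.8 and 24.9 CPM in Bcl11b +/+. The 3 groups did not overlap and were in the same order as for Trdc. Trac fell in D/N440K against Bcl11b +/+ (log2 fold change -2.35 ± 0.40, edgeR adjusted p = 2.73e-05). In +/N440K it was -0.85 ± 0.31 (edgeR adjusted p = 0.083), and between the mutants -1.51 ± 0.46 (edgeR adjusted p = 0.154), neither past the test. In Tcf7 F/F:Vav1-Cre it held 2, 6 and 8 counts, or 1.62, 3.39 and 4.45 CPM, against 45.6 and 57.5 CPM in Tcf7 +/+. No library of one group came near the other, and the log2 fold change was -3.93 ± 0.33 (edgeR adjusted p = 1.27e-07). Trac passed the filter there through the Tcf7 +/+ libraries alone, so this change is a description.

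Summed by locus, beta had the smallest change of the loci in each comparison, with log2 ratios of group means of -0.30 in D/N440K and -0.27 in +/N440K against Bcl11b +/+, -0.03 between these mutants and -0.58 in Tcf7 F/F:Vav1-Cre against Tcf7 +/+. Trbc1 stood at 168 and 176 CPM in D/N440K, 173 and 186 CPM in +/N440K and 211 and 195 CPM in Bcl11b +/+. Bcl11b +/+ was higher than both mutants, but the log2 fold changes of -0.24 ± 0.11 in D/N440K and -0.18 ± 0.11 in +/N440K did not pass the test (edgeR adjusted p = 0.195 and 0.4). Trbc2 stood at 148 and 164 CPM in D/N440K, 149 and 159.9 CPM in +/N440K and 205 and 196 CPM in Bcl11b +/+. The mutants overlapped each other and lay below Bcl11b +/+, and Trbc2 was called lower in D/N440K (-0.36 ± 0.12, edgeR adjusted p = 0.0288) and in +/N440K (-0.37 ± 0.11, edgeR adjusted p = 0.0278). Both calls depended on single libraries. In D/N440K the call was lost without any one of the 4 libraries compared: without D/N440K replicate 1 or 2 (edgeR adjusted p = 0.323 and 0.0555) or without Bcl11b +/+ replicate 1 or 2 (0.176 and 0.0918). In +/N440K it was lost without +/N440K replicate 1 (0.17) and without Bcl11b +/+ replicate 1 or 2 (0.177 and 0.0863). With no filter on low counts (0.0553 and 0.0507) and with DESeq2 (0.404 and 0.446) both were lost. Between the mutants the log2 fold change was -0.06 ± 0.11 for Trbc1 and 0.01 ± 0.12 for Trbc2 (edgeR adjusted p = 0.977 and 0.993).

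At day 7 Trbc1 stood at 56.6, 46.9 and 49.0 CPM in Tcf7 F/F:Vav1-Cre, against 104 and 106 CPM in Tcf7 +/+. It fell by 1.06 ± 0.17 on the log2 scale, with no overlap (edgeR adjusted p = 2e-04). Trbc2 stood at 124.5, 112 and 101 CPM in Tcf7 F/F:Vav1-Cre, against 137 and 139.8 CPM in Tcf7 +/+. The groups lay apart, but the log2 fold change of -0.30 ± 0.15 did not pass the test (edgeR adjusted p = 0.155). Since 1 base separates the first exons of the pair, their summed level is given as well. Summed, the beta constant segments averaged 163 ± 16.1 CPM in Tcf7 F/F:Vav1-Cre and 244 ± 3.61 CPM in Tcf7 +/+ (SD, n = 3 and 2). At day 0 the sums were 328 ± 16.9 CPM in D/N440K, 334 ± 16.4 CPM in +/N440K and 403 ± 17.2 CPM in Bcl11b +/+ (SD, n = 2 each).

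Set side by side within a library, the loci differed in their proportions between groups. Of the counts on the constant segments, delta took 20.1 ± 0.445% in D/N440K, 27.2 ± 3.06% in +/N440K and 31.1 ± 0.354% in Bcl11b +/+ (SD, n = 2 each). Alpha took 0.973 ± 0.147% in D/N440K, 2.32 ± 0.564% in +/N440K and 3.20 ± 0.593% in Bcl11b +/+. Beta took 57.4 ± 0.933% in D/N440K, 49.1 ± 3.52% in +/N440K and 44.1 ± 0.622% in Bcl11b +/+. The delta and alpha shares were thus lowest, and the beta share highest, in D/N440K. Gamma took 21.5 ± 0.332% in D/N440K, 21.3 ± 0.099% in +/N440K and 21.6 ± 0.849% in Bcl11b +/+, means that lay within their spread. At day 7 delta took 26.3 ± 1.19% in Tcf7 F/F:Vav1-Cre and 33.1 ± 0.361% in Tcf7 +/+ (SD, n = 3 and 2). Alpha took 0.785 ± 0.416% in Tcf7 F/F:Vav1-Cre and 5.30 ± 0.168% in Tcf7 +/+, gamma 33.7 ± 1.89% and 36.3 ± 3.13% in these groups, and beta 39.2 ± 0.321% in Tcf7 F/F:Vav1-Cre and 25.3 ± 2.94% in Tcf7 +/+. Here too the beta share was the one that was higher in the mutant.

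As log2 ratios within a library, delta to beta averaged -1.51 ± 0.0552 in D/N440K and -0.50 ± 0.0368 in Bcl11b +/+ (SD, n = 2 each), a difference of -1.004. The same ratio differed by -0.35 in +/N440K against Bcl11b +/+, by -0.66 in D/N440K against +/N440K and by -0.97 in Tcf7 F/F:Vav1-Cre against Tcf7 +/+. For alpha to beta the difference was -1.999 in D/N440K and -0.61 in +/N440K against Bcl11b +/+, -1.39 in D/N440K against +/N440K and -3.40 in Tcf7 F/F:Vav1-Cre against Tcf7 +/+. For delta to alpha it was 0.995 in D/N440K and 0.26 in +/N440K against Bcl11b +/+, 0.73 in D/N440K against +/N440K and 2.43 in Tcf7 F/F:Vav1-Cre against Tcf7 +/+. The alpha mean was thus the lower one relative to both delta and beta in each comparison. For gamma to beta it was -0.39 in D/N440K and -0.17 in +/N440K against Bcl11b +/+, -0.22 in D/N440K against +/N440K and -0.74 in Tcf7 F/F:Vav1-Cre against Tcf7 +/+. The groups lay apart for each of these differences except delta to alpha in +/N440K against Bcl11b +/+. A two-sided exact permutation test over libraries gave p = 0.333 with 2 against 2 libraries and p = 0.2 with 3 against 2, the smallest p-values that these numbers allow, and p = 0.667 for that exception, so no ratio could reach the threshold. The +/N440K differences rest on single libraries: leaving out 1 library in turn gave -0.54 to -0.16 for delta to beta, -0.92 to -0.30 for alpha to beta and 0.06 to 0.46 for delta to alpha. With Tcrg-C1 alone in place of the gamma sum, the gamma to beta difference in Tcf7 F/F:Vav1-Cre against Tcf7 +/+ was 0.87, of the opposite sign.

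**Figure D4:**
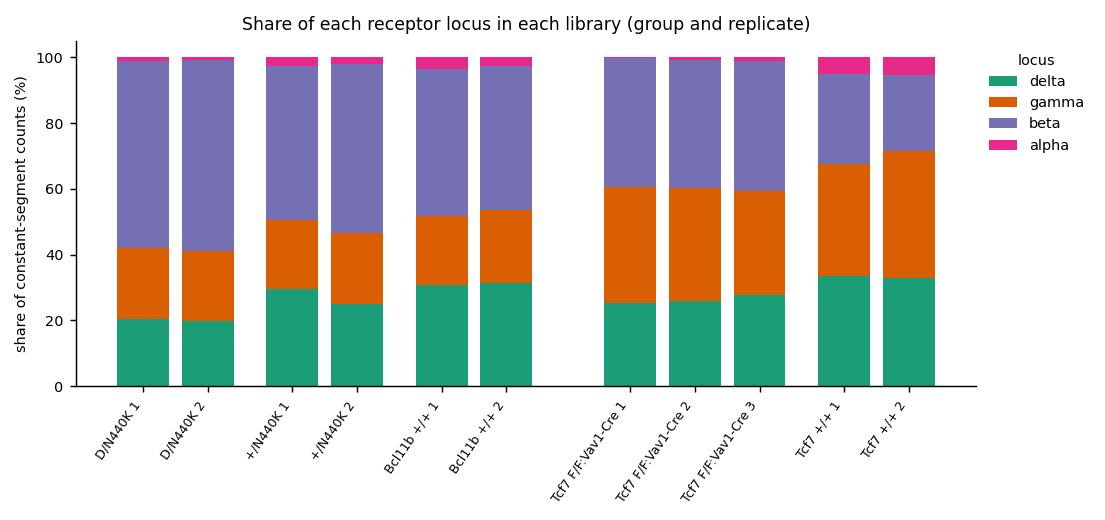
Share of the delta (Trdc), gamma (Tcrg-C1, Tcrg-C2, Tcrg-C4), beta (Trbc1, Trbc2) and alpha (Trac) constant segments in their summed counts, as stacked bars in % for each library. The beta share averages 57.4% in D/N440K and 44.1% in Bcl11b +/+, with 39.2% in Tcf7 F/F:Vav1-Cre against 25.3% in Tcf7 +/+.

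Per length, in CPM per kilobase of annotated exon, both beta segments had the highest mean levels in every Bcl11b group. In D/N440K, Trbc1 averaged 229.6 ± 7.71 and Trbc2 225.5 ± 16.0, followed by Trgv2 at 63.0 ± 7.06, Tcrg-C4 at 58.5 ± 7.79, Tcrg-C1 at 48.9 ± 6.86, Trdc at 29.7 ± 0.382, Tcrg-C2 at 21.4 ± 1.18 and Trac at 5.93 ± 0.685 (SD, n = 2). In +/N440K, Trbc1 averaged 239 ± 11.9, Trbc2 223 ± 10.8, Tcrg-C1 76.7 ± 4.82, Trgv2 62.5 ± 17.3, Tcrg-C4 51.9 ± 11, Trdc 48.0 ± 6.47, Tcrg-C2 25.2 ± 4.07 and Trac 16.9 ± 4.49 (SD, n = 2). In Bcl11b +/+, Trbc2 averaged 289 ± 8.91, Trbc1 271 ± 14.7, Tcrg-C1 98.7 ± 0.212, Trgv2 97.9 ± 14.6, Trdc 73.5 ± 1.27, Tcrg-C4 65.4 ± 2.88, Tcrg-C2 45.2 ± 0.976 and Trac 31.4 ± 6.70 (SD, n = 2). Neighbours in this order that did not differ beyond their summed SDs were the beta pair in each group, Trgv2 with Tcrg-C4 and Tcrg-C4 with Tcrg-C1 in D/N440K, the run of Tcrg-C1, Trgv2, Tcrg-C4 and Trdc and the pair of Tcrg-C2 and Trac in +/N440K, and Tcrg-C1 with Trgv2 in Bcl11b +/+. The Trdc value rests on an annotated exon length of 3865 bases, against 692 to 985 for the other constant segments, so its rank depends on that annotation.

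At day 7 the order was another one. For Tcf7 F/F:Vav1-Cre, Trbc2 averaged 163 ± 17.2 CPM per kilobase, Tcrg-C1 117.5 ± 22.7, Trbc1 67.9 ± 6.83, Trdc 28.3 ± 1.94, Tcrg-C2 25.3 ± 0.351, Tcrg-C4 9.52 ± 2.02, Trgv2 4.81 ± 4.53 and Trac 3.37 ± 1.53 (SD, n = 3). In Tcf7 +/+, Trbc2 averaged 199.9 ± 2.97, Tcrg-C4 155 ± 44.1, Trbc1 141 ± 2.19, Trgv2 127 ± 2.40, Tcrg-C2 125 ± 23.5, Tcrg-C1 95.4 ± 12.5, Trdc 83.2 ± 10.0 and Trac 55.2 ± 8.97 (SD, n = 2). Of the 4 gamma transcripts among the 8, Tcrg-C1 thus had the highest mean in Tcf7 F/F:Vav1-Cre and the lowest in Tcf7 +/+. Within Tcf7 F/F:Vav1-Cre, Tcrg-C4 with Trgv2 and Trgv2 with Trac did not differ beyond their summed SDs. In Tcf7 +/+ the same held for every neighbouring pair outside Trbc1 with Trgv2 and Trdc with Trac. The 2 tables were normalised separately, so levels are not compared between ages.

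Beyond the 8, the other segments of the loci were mostly too low to test. Of all 268 segments in the annotation, 131 had a count in the Bcl11b table and 20 passed the filter, and 151 had a count in the Tcf7 table and 22 passed. A segment could pass through the libraries of its higher group alone, the +/+ or the mutant one, so these counts are a description only. Of the 12 other segments tested in the Bcl11b table, 4 were called lower in +/N440K and 5 in D/N440K against Bcl11b +/+ (10.1% and 12.4% of all genes tested were called, 5.30% and 6.31% lower), none higher, and 0 of 12 between the mutants (edgeR), where 3, Tcrg-V6, Trbj2-7 and Trdv4, had an unadjusted p under 0.05, as had 851 of all 10910 genes tested. Of the 14 tested in the Tcf7 table, 7 were called lower and 2, Tcrg-V7 and Tcrg-V5, higher in Tcf7 F/F:Vav1-Cre, where 23.2% of all genes tested were called and 11.1% lower.

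Among delta segments, Trdv4 had 24.0 and 35.6 CPM in D/N440K, 57.9 and 35.5 CPM in +/N440K and 68.5 and 73.1 CPM in Bcl11b +/+. It lay below Bcl11b +/+ in all 4 mutant libraries, and passed the test in D/N440K (log2 fold change -1.27 ± 0.23, edgeR adjusted p = 6.02e-05) but not in +/N440K (-0.57 ± 0.20, edgeR adjusted p = 0.065). In Tcf7 F/F:Vav1-Cre it had 8.09, 9.61 and 9.46 CPM, against 9.58 and 11.8 CPM in Tcf7 +/+, and did not pass (-0.23 ± 0.35, edgeR adjusted p = 0.689). Trdv5, which overlaps Trdc on the other strand, had 1, 1 and 2 counts in Tcf7 F/F:Vav1-Cre, against 41 and 30 in Tcf7 +/+. It fell by 4.47 ± 0.51 on the log2 scale with no overlap (edgeR adjusted p = 4.24e-06). Trdv5, like Trdj1, passed the filter through the Tcf7 +/+ libraries alone, so the changes of both are a description. Trdj1 was called lower in Tcf7 F/F:Vav1-Cre (-1.42 ± 0.51, edgeR adjusted p = 0.0487), a call lost without any one library (edgeR adjusted p = 0.0621 to 0.233), and Trdj2 was not called (-0.69 ± 0.43, edgeR adjusted p = 0.273).

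The variable and joining segments of beta are given as sums. Summed over all 35 annotated beta variable segments, Tcf7 F/F:Vav1-Cre held 1, 0 and 0 counts, against 116 and 132 in Tcf7 +/+. The beta joining segments summed to 46.1, 37.3 and 32.3 CPM in Tcf7 F/F:Vav1-Cre and 45.6 and 61.4 CPM in Tcf7 +/+. The joining sums overlapped, while the variable sums lay far apart. At day 0 the beta variable segments summed to 13.7 and 14.2 CPM in D/N440K, 8.98 and 12.8 CPM in +/N440K and 36.8 and 39.0 CPM in Bcl11b +/+. The beta joining segments summed to 68.5 and 95.7 CPM in D/N440K, 92.2 and 91.8 CPM in +/N440K and 87.0 and 93.8 CPM in Bcl11b +/+. Again the mutant libraries lay below Bcl11b +/+ in the variable sums, while the joining sums overlapped. These sums were not tested, and 3 beta variable segments passed the filter in the Tcf7 table alone. Trbv13-2 had 0 counts in Tcf7 F/F:Vav1-Cre and 34 in Tcf7 +/+, at least 15.3-fold lower if the group's floor is set at 3 counts. Trbv12-2 had 0 and 29 counts in these groups, at least 13.1-fold lower. Trbv1 had 1 and 31 counts, and its level was 42.0 times higher in Tcf7 +/+ (exact 95% interval 6.99 to 1710, counting error only).

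Alpha variable and joining RNA was low with Trac. The alpha joining segments, 60 in number, summed to 2 and 0 counts in D/N440K, 6 and 12 in +/N440K and 49 and 50 in Bcl11b +/+. For Tcf7 F/F:Vav1-Cre they summed to 1, 2 and 1 counts, against 70 and 104 in Tcf7 +/+. The alpha variable segments summed to 11 and 2 counts in D/N440K, 3 and 2 in +/N440K and 32 and 38 in Bcl11b +/+, and to 3, 11 and 0 in Tcf7 F/F:Vav1-Cre against 40 and 41 in Tcf7 +/+. Every mutant library lay below both of its +/+ libraries in each of these sums. The only alpha variable segment tested was Trav15-1-dv6-1, which can join to alpha or delta and belongs to a family of similar segments, so its value is uncertain. It had 1 count in D/N440K, 0 in +/N440K and 25 in Bcl11b +/+. That is at least 8.55-fold lower in +/N440K, with a floor of 3 counts, and 24.6 times higher in Bcl11b +/+ than in D/N440K (exact 95% interval 4.03 to 1011).

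Most partners of the receptor were lower as well. Of 5 tested genes of the list of receptor partners (Cd3d, Cd3e, Cd3g, Cd247, Fcer1g, with Ptcra too low to test), 4 fell and 1 rose in +/N440K and 3 fell and 1 rose in D/N440K against Bcl11b +/+. Within Tcf7 F/F:Vav1-Cre 4 fell and none rose. Of all genes tested, 12.4% were called in D/N440K (6.31% lower), 10.1% in +/N440K (5.30% lower) and 23.2% in Tcf7 F/F:Vav1-Cre (11.1% lower). The median log2 fold change of its tested genes was -0.83 in D/N440K, -0.71 in +/N440K and -1.30 with Tcf7 F/F:Vav1-Cre, where the medians over all genes tested were 0.0014, 0.0017 and -0.0096. Cd3e, a CD3 chain that every TCR needs at the surface, had 235 and 231 CPM in D/N440K, 299 and 315 CPM in +/N440K and 508 and 496.5 CPM in Bcl11b +/+, in the order of Trdc. Its log2 fold change was -1.11 ± 0.09 in D/N440K and -0.71 ± 0.08 in +/N440K against Bcl11b +/+ (edgeR adjusted p = 1.6e-12 and 4.07e-08). At day 7 it was -1.30 ± 0.12 in Tcf7 F/F:Vav1-Cre (edgeR adjusted p = 6.39e-07). Cd247, the zeta chain, fell by 1.43 ± 0.15 in D/N440K and by 1.13 ± 0.15 in +/N440K (edgeR adjusted p = 3.15e-09 and 2.65e-07). Fcer1g, a signalling chain that also serves Fc and NK receptors, rose in both, by 0.63 ± 0.11 and 0.61 ± 0.11 (edgeR adjusted p = 6.38e-05 and 0.00015). In Tcf7 F/F:Vav1-Cre, Cd3d had 2, 3 and 2 counts, against 188 and 225 in Tcf7 +/+ (log2 fold change -6.25 ± 0.31, edgeR adjusted p = 2.67e-10), and Cd3g fell by 1.67 ± 0.16 (edgeR adjusted p = 5.47e-07). Cd3d passed the filter there through the Tcf7 +/+ libraries alone, so its change is a description. Between D/N440K and +/N440K, 1 fell and 1 rose, Cd3e (-0.39 ± 0.10) and Cd3g (0.52 ± 0.12), and both calls (edgeR adjusted p = 0.0361 and 0.0309) were lost without any 1 of these 4 libraries (edgeR adjusted p = 0.0583 to 0.252).

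Of the V(D)J recombination list, which holds the RAG recombinase and the repair factors that join segments, 5 of 10 tested genes fell in +/N440K and 6 of 10 in D/N440K against Bcl11b +/+, with none higher. For Tcf7 F/F:Vav1-Cre 6 of 13 fell, with none higher. Among all genes tested, 6.31% were called lower in D/N440K, 5.30% in +/N440K and 11.1% in Tcf7 F/F:Vav1-Cre. Its median log2 fold change was -0.56 in D/N440K, -0.53 in +/N440K and -0.57 with Tcf7 F/F:Vav1-Cre, against the same medians over all genes. Rag1, which cuts at the segments, had 8.56 and 19.3 CPM in D/N440K, 2.45 and 0.987 CPM in +/N440K and 209.7 and 216 CPM in Bcl11b +/+ (log2 fold change -3.97 ± 0.21 in D/N440K and -6.81 ± 0.30 in +/N440K, edgeR adjusted p = 2.79e-18 and 2.67e-20). Rag1 passed the filter there through the Bcl11b +/+ libraries alone, so these changes are a description. It was higher in D/N440K than in +/N440K (2.84 ± 0.62, edgeR adjusted p = 0.0142), the only call of the list between them, and that call was lost without +/N440K replicate 2 (0.0951) or D/N440K replicate 2 (0.351) and with DESeq2 (0.237) and limma-voom (0.146). Rag1 had 1, 2 and 1 counts in Tcf7 F/F:Vav1-Cre, against 581 and 708 in Tcf7 +/+ (-8.65 ± 0.28, edgeR adjusted p = 1.87e-12), a description since it passed the filter there through Tcf7 +/+ alone. Rag2 had 0 and 54 counts in these groups, at least 24.4-fold lower, and Dntt, which adds bases at the junctions, 0 and 128 counts, at least 57.8-fold lower. Lig4, a ligase of the joining step, fell in +/N440K (-2.59 ± 0.48, edgeR adjusted p = 0.000128), and Xrcc6, which binds DNA ends, in D/N440K (-0.86 ± 0.19, edgeR adjusted p = 0.00117, but 0.0888 with DESeq2). Lig4 had 6 and 2 counts in +/N440K and 9 and 12 in D/N440K. It passed the filter through the Bcl11b +/+ libraries alone, so its change is a description.

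Of 20 locus regulators, mostly transcription factors known from thymocytes, with the cytokine receptor chain Il7r, 12 fell and 1 rose in +/N440K and 12 fell and 2 rose in D/N440K against Bcl11b +/+. Within Tcf7 F/F:Vav1-Cre 9 fell and 5 rose. The background of calls in either direction was 12.4% in D/N440K, 10.1% in +/N440K and 23.2% in Tcf7 F/F:Vav1-Cre. For this list the median log2 fold change was -0.34 in D/N440K, -0.39 in +/N440K and -0.21 with Tcf7 F/F:Vav1-Cre. Sox13, a factor of fetal gamma-delta cells, had 9.42 and 13.2 CPM in D/N440K, 22.9 and 14.8 CPM in +/N440K and 541 and 394 CPM in Bcl11b +/+. It had 7.28, 6.21 and 3.34 CPM in Tcf7 F/F:Vav1-Cre, against 219 and 258 CPM in Tcf7 +/+. Its log2 fold change was -5.36 ± 0.20 in D/N440K, -4.59 ± 0.18 in +/N440K and -5.44 ± 0.23 with Tcf7 F/F:Vav1-Cre (edgeR adjusted p = 2.77e-22, 1.11e-21 and 8.28e-11). Lef1, which binds DNA like TCF-1, fell in D/N440K (-1.85 ± 0.12) and in +/N440K (-1.79 ± 0.11, edgeR adjusted p = 1.55e-15 and 3.09e-15). Myb fell by 3.08 ± 0.18 in Tcf7 F/F:Vav1-Cre (edgeR adjusted p = 2.01e-09).

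Beside the lower TCR transcripts, markers of some cell types that such a sort can hold were lower and those of others higher. Their part in the results was not tested. Over all genes tested, 665 of 10910 were called higher and 688 lower in D/N440K, and 523 higher and 578 lower in +/N440K. With Tcf7 F/F:Vav1-Cre 1487 of 12366 were called higher and 1376 lower. Markers of double-positive thymocytes, which open the alpha locus, summed to 47.1 to 68.2 CPM in D/N440K, 58.2 to 58.8 CPM in +/N440K and 635 to 638 CPM in Bcl11b +/+, and 6 of 6 tested fell in each mutant. They summed to 449 to 453 CPM in Tcf7 F/F:Vav1-Cre and 906 to 927 CPM in Tcf7 +/+, with 5 of 6 lower and Cd4 higher. Cd4 made up most of that mutant sum, with 370, 336 and 347 CPM, against 232 and 171 CPM in Tcf7 +/+. Rag1 is in this list as well as in that of V(D)J recombination, and Sox13 is in the next one as well as among the regulators. Markers of gamma-delta cells that make IL-17 summed to 298 to 377 CPM in D/N440K, 518 to 535 CPM in +/N440K and 1556 to 1856 CPM in Bcl11b +/+, with 7 of 7 lower in each mutant. In Tcf7 F/F:Vav1-Cre they summed to 2317 to 2566 CPM, against 1448 to 1727 CPM in Tcf7 +/+, with 4 of 7 higher and Sox13 lower. Markers of NK cells and ILC1, which carry no TCR, summed to 1603 to 1673 CPM in D/N440K, 1362 to 1448 CPM in +/N440K and 614 to 721.5 CPM in Bcl11b +/+, with 8 of 8 higher in D/N440K and 7 of 8 in +/N440K. For Tcf7 F/F:Vav1-Cre they summed to 655 to 780.4 CPM, against 772 to 961 CPM in Tcf7 +/+, with 1 of 8 higher and 5 lower. By these sums, double-positive and IL-17 markers were lower beside lower Trac and Trdc in D/N440K and +/N440K at day 0. At day 7 the IL-17 sum was higher beside lower Trdc, with 4 of 7 markers higher. The double-positive sum was lower there beside lower Trac.

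Mature alpha-beta T-cell markers summed to 431.5 to 494 CPM in D/N440K, 498 to 539 CPM in +/N440K and 624 to 668 CPM in Bcl11b +/+ (4 of 6 lower in each mutant, with Klf2 higher in D/N440K, and Klf2 and S1pr1 higher in +/N440K), and to 295 to 355 CPM in Tcf7 F/F:Vav1-Cre against 697 to 701.5 CPM in Tcf7 +/+ (5 of 6 lower and Ccr7 higher). ILC2 markers summed to 228 to 255 CPM in D/N440K, 294 to 317 CPM in +/N440K and 336 to 351 CPM in Bcl11b +/+, and to 614 to 659 CPM in Tcf7 F/F:Vav1-Cre against 305 to 335 CPM in Tcf7 +/+, where 4 of 5 were higher. B-cell markers summed to 228 to 249 CPM in D/N440K, 317 to 332 CPM in +/N440K and 424 to 429.7 CPM in Bcl11b +/+, with Ms4a1 and Pax5 at 0 counts in all 3 groups and Ebf1 at 0 in D/N440K. Of the 2 tested there, both fell in D/N440K and 1 in +/N440K. At day 7 they summed to 317 to 338 CPM in Tcf7 F/F:Vav1-Cre and 568 to 624 CPM in Tcf7 +/+, with 6 of 7 lower. Myeloid markers summed to 303 CPM in both libraries of D/N440K, 215 to 257 CPM in +/N440K and 104 to 157 CPM in Bcl11b +/+, and to 917 to 1052 CPM in Tcf7 F/F:Vav1-Cre and 339.9 to 556 CPM in Tcf7 +/+, with Elane at 0 in every group. Of 4 tested, 3 rose in D/N440K, 2 in +/N440K and 3 in Tcf7 F/F:Vav1-Cre. Erythroid markers summed to 71.9 to 93.6 CPM in D/N440K, 10.9 to 24.5 CPM in +/N440K and 24.9 to 53.2 CPM in Bcl11b +/+, and to 8.47 to 12.1 CPM in Tcf7 F/F:Vav1-Cre and 8.46 to 9.02 CPM in Tcf7 +/+. Of 3 tested at day 0, 2 rose in D/N440K and none passed in +/N440K. The 5 general thymocyte markers had 1 member lower in each mutant of Bcl11b and 2 lower and 1 higher in Tcf7 F/F:Vav1-Cre. For all these lists the background of calls in either direction was 12.4% in D/N440K, 10.1% in +/N440K and 23.2% in Tcf7 F/F:Vav1-Cre.

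The genes with the most similar profile were taken over the 11 libraries, as the smallest root mean square (RMS) difference of log2 values relative to the +/+ libraries of the same table, among 9412 genes outside the TCR loci. For Trdc they were Cd3e (RMS 0.198), Actn1 (0.204), which encodes an actinin, and Fam169b (0.229). For Tcrg-C1 they were Sesn1 (0.156), Chd9 (0.179) and L3mbtl3 (0.190), none of them a lineage marker of the lists. For Trac they were Fbln1 (0.454), Nyap1 (0.4996) and Nsg2 (0.632), with larger differences and so less alike. Trbc1 was closest to Dock9 (0.142), Prps1 (0.145) and Sh3bp5 (0.146), and Trbc2 to Cox7a2 (0.0935), Mier1 (0.0957) and Ube2h (0.0966). The libraries of a group share genotype and age, so these distances are a description only.

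Whether the mutants of Bcl11b and the Tcf7 F/F:Vav1-Cre thymocytes differed in their TCR changes was tested as the difference of their log2 fold changes, each against its own +/+ group, in 1 fit over both tables. Age differs with the table and cannot be told apart from it. For D/N440K 5 of 8 transcripts differed, where 11.5% of 12249 genes did, and for +/N440K 6 of 8, where 11.4% did. The changes of Tcrg-C2 (1.22 and 1.45), Tcrg-C4 (3.87 and 3.72), Trgv2 (4.20 for both) and Trbc1 (0.83 and 0.89) were more negative in Tcf7 F/F:Vav1-Cre than in D/N440K or +/N440K, given in that order as the D/N440K or +/N440K change minus the Tcf7 F/F:Vav1-Cre change. Tcrg-C1 was more negative in D/N440K (-1.29), and Trdc (0.95) and Trac (3.07) were less negative in +/N440K, than in Tcf7 F/F:Vav1-Cre. For D/N440K the difference of Trdc did not pass (0.26, edgeR adjusted p = 0.432), nor did that of Trac (1.56, edgeR adjusted p = 0.102) or Trbc2 (-0.06, edgeR adjusted p = 0.901). For +/N440K, Tcrg-C1 (-0.65, edgeR adjusted p = 0.107) and Trbc2 (-0.07, edgeR adjusted p = 0.875) did not pass.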

How the data were processed

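RNA-seq libraries of sorted mouse thymocytes were compared within 2 deposited tables of read counts per gene, one for Bcl11b (day 0) and one for Tcf7 (day 7). Per the submitters' processing notes, the authors used fastp 0.20.0, STAR 2.7.3a, SAMtools 1.9, Picard 2.21.1, HTSeq 0.11.2 and edgeR, and the deposited counts are whole numbers without normalization. The deposited normalized tables were not used. Samples were grouped by their labels. Genes were filtered (filterByExpr, minimum count 10), scaled by TMM and tested with edgeR 4.0.16 (quasi-likelihood, two-sided, Benjamini-Hochberg over all genes tested, threshold 0.05) in R 4.3.3, fitting all groups of a table together. The test was checked on simulated data. Tested were 10910 genes (Bcl11b), 12366 (Tcf7) and 12249 in both. CPM were computed from the counts and the TMM-scaled sum of the tested genes. Library totals of 999381 to 1842717 counts limit the precision of low transcripts. Intervals and floors cover counting error only. Log2 locus ratios used a pseudocount of 0.5 and an exact permutation test. Figures were drawn with matplotlib 3.10.9 in Python 3.11.15.

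Named are the 8 transcripts, other TCR segments that passed the filter, and from each of the lists (receptor partners, V(D)J recombination, locus regulators) the genes with the smallest p. Some genes of the lists are not reported here. The members and lists were chosen with earlier results of these data known. Alternatives were other normalizations and filters, DESeq2 1.42.0, limma-voom (limma 3.58.1), the replicate number as a block, and leaving out each library. Those for other segments and list genes were added after seeing the data.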

Additional observations from a re-analysis of the deposited data

Results flagged for a closer look

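The tables differ in age as well as in the gene changed, so a difference between them cannot be assigned to either. Each value here is the log2 fold change of a Bcl11b mutant against Bcl11b +/+ minus that of Tcf7 F/F:Vav1-Cre against Tcf7 +/+, with its SE and edgeR adjusted p, and each passed the test of that difference. For D/N440K the difference was positive, the change being more negative in Tcf7 F/F:Vav1-Cre, for Tcrg-C4 (3.87 ± 0.339, edgeR adjusted p = 7.95e-09), Trgv2 (4.20 ± 0.493, 6.88e-07), Tcrg-V1 (4.46 ± 0.628, 8.23e-06), Tcrg-C2 (1.22 ± 0.336, 0.0167) and Trbc1 (0.83 ± 0.197, 0.00562). It was negative for Tcrg-C1 (-1.29 ± 0.268, edgeR adjusted p = 0.00155), Tcrg-V5 (-1.99 ± 0.435, 0.00244) and Tcrg-V6 (-2.13 ± 0.661, 0.0323). With DESeq2 the differences of Tcrg-C2 (adjusted p = 0.0891) and Tcrg-V6 (0.149) were not called. In this fit Tcrg-V6 passed the filter through the Bcl11b +/+ libraries alone, so its difference, here and for +/N440K, is a description.

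For +/N440K the difference was positive for Tcrg-C4 (3.72 ± 0.341, edgeR adjusted p = 2.53e-08), Trgv2 (4.20 ± 0.49, 7.49e-07), Tcrg-V1 (4.34 ± 0.632, 1.56e-05), Trac (3.07 ± 0.49, 7.37e-05), Trdc (0.95 ± 0.178, 0.000529), Trbc1 (0.89 ± 0.196, 0.00313) and Tcrg-C2 (1.45 ± 0.325, 0.00348). It was negative for Tcrg-V6 (-3.26 ± 0.71, edgeR adjusted p = 0.00245) and Tcrg-V5 (-1.67 ± 0.431, 0.0105). No group has enough libraries for a test of single libraries that stand apart.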

How the results depend on the processing

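All 8 Tcf7 results of the transcripts kept their direction and their side of the threshold under every alternative run. The number of genes called moved most: DESeq2 called 357 in +/N440K and 528 in D/N440K against Bcl11b +/+, 4 between these mutants, and 898 and 859 for the differences of the D/N440K and +/N440K changes from that in Tcf7, against 1101, 1353, 58, 1407 and 1394 with edgeR. Without a filter on low counts 91 were called between D/N440K and +/N440K and 1606 in Tcf7 (2863 with it). Leaving out 1 library gave 726 to 1121 for +/N440K, 924 to 1571 for D/N440K, 25 to 91 between them and 1700 to 4612 in Tcf7, where a lone library is assumed to vary like the others. The fold change between D/N440K and +/N440K changed sign for Trgv2 (DESeq2 0.0069, limma-voom 0.0181, left-out libraries -0.24 to 0.34), Trbc2 (-0.0608 to 0.0852) and Tcrg-C4 (-0.0388 to 0.40), none of them called. With Tcrg-C1 alone, the gamma to beta difference was -0.71 in D/N440K against Bcl11b +/+, -0.62 against +/N440K and 0.87 in Tcf7. The cause was not tested.

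Deviations of same-numbered libraries showed little correlation (-0.112 to 0.0736), so no pairing by replicate number was seen. In groups of so few libraries this cannot exclude a shared batch. With the replicate number as a block 37 genes were called between D/N440K and +/N440K. Tcrg-C1 then passed for the difference of the +/N440K change from that in Tcf7 (edgeR adjusted p = 0.0484). Low counts limit Trac in D/N440K and Trgv2 in Tcf7 F/F:Vav1-Cre.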
